A study of Rattus norvegicus with 24 samples.

Results

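Wnt4, Fzd5 and Lypd6 encode a secreted Wnt ligand, a Frizzled receptor for Wnt ligands and a membrane-anchored protein that modulates Wnt signalling. These 3 genes, of 32883 in the count table, were chosen by measured values, namely earlier results of these same rats when RS3 was set against C and when RS7 was set against C and against AS. Their values in those 3 comparisons are therefore given as a description. Calls of the genes in them are listed below, and nothing is read from these calls. The tested comparisons named below are the others. The C versus AS, AS versus RS3 and RS3 versus RS7 group comparisons did not choose the genes, but their log2 fold changes follow arithmetically from the 3 that did. Their tests are therefore not independent of the choice, and the adjusted p given for them supports nothing.

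Wnt ligands are lipid-modified glycoproteins that bind Frizzled receptors together with the co-receptors Lrp5 or Lrp6. In the canonical branch this binding stabilizes β-catenin, the product of Ctnnb1, which acts in the nucleus with factors of the TCF/LEF family, whereas other branches act through cell polarity proteins or calcium. In the brain, Wnt signalling is known for patterning the developing diencephalon and, in the adult, for effects on synapses.

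Adult male Sprague-Dawley rats were placed in sound-attenuating chambers on consecutive days and were exposed to loud white noise 0, 1, 3 or 7 times. These groups are called C (control), AS (acute stress), RS3 and RS7 (both repeated stress). Each group had 6 rats, and each rat gave 1 library of polyadenylated RNA from a tissue block that held the rostral posterior hypothalamic (rPH) region, taken 24 h after the last control or noise exposure. Replicates are therefore separate rats, named here by group and rat number from 1 to 24. The comparisons ask how gene expression in the block differs with the number of exposures.

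The values below come from 20 retained rats, 5 per group, and the left-out rats were number 20 (C), 18 (AS), 8 (RS3) and 1 (RS7). The total count per retained rat lay between 8087697 and 16947298, with group medians of 11298078 (C), 11858909 (AS), 12188012 (RS3) and 14189794 (RS7). In 3 retained libraries the 10 most abundant genes took a larger share of all counts than in the others, with 20.1% in C rat 21, 20.3% in C rat 22 and 18.8% in RS7 rat 4, against 12.4% to 14.9% in the other retained rats. This share was 25.1%, 46.3%, 24.9% and 33.8% in the left-out C, AS, RS3 and RS7 rats. Levels are given in CPM, counts scaled to library size with TMM factors. Log2 fold changes are positive where the level was higher in the more often exposed group. No gene length was used, so that levels are not comparable between genes.

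Wnt4 (ENSRNOG00000013166), the ligand, had its lowest group mean in the C group and its highest in the RS7 group. In the C group the level was 29.0 CPM in rat 19, 20.4 in rat 21, 27.7 in rat 22, 33.2 in rat 23 and 29.0 in rat 24. The AS rats had 42.2 CPM in rat 13, 31.0 in rat 14, 39.9 in rat 15, 25.2 in rat 16 and 28.2 in rat 17. The AS group thus held 2 rats near the RS3 and RS7 values and 3 within the range of the C group. In the RS3 group Wnt4 was at 46.8 CPM in rat 7, 44.4 in rat 9, 43.1 in rat 10, 31.6 in rat 11 and 45.4 in rat 12, and in the RS7 group at 41.4 in rat 2, 42.8 in rat 3, 40.6 in rat 4, 51.5 in rat 5 and 46.4 in rat 6. RS3 rat 11 stood apart from the other RS3 rats and lay below C rat 23, whereas every RS7 rat lay above every C rat. The group means were 27.9 ± 4.68 CPM in C, 33.3 ± 7.42 in AS, 42.3 ± 6.11 in RS3 and 44.5 ± 4.49 in RS7 (SD, n = 5 each), on raw counts of 153 to 816 per rat. In bulk tissue, fewer cells of a type and less RNA per cell cannot be told apart, which holds for all levels given here.

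In the comparisons that chose the genes, the log2 fold change of Wnt4 was 0.58 (SE 0.141) for C versus RS3, 0.66 (SE 0.141) for C versus RS7 and 0.42 (SE 0.137) for AS versus RS7. In the C versus AS group comparison it was 0.24 (SE 0.144, edgeR Benjamini-Hochberg adjusted p = 0.567), and the 2 groups overlapped; it was 0.13 without AS rat 13 and 0.33 without AS rat 16. It was 0.35 (SE 0.138, edgeR adjusted p = 1.00) for AS versus RS3 and 0.08 (SE 0.135, edgeR adjusted p = 0.912) for RS3 versus RS7. Wnt4 therefore did not pass the threshold of 0.05 in any of the tested comparisons.

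Fzd5 (ENSRNOG00000014678), the receptor, had the lowest read counts of the 3 genes, 11 to 93 per retained rat, so that its level in a single rat is imprecise. Its level in the C group was 2.08 CPM in rat 19, 1.46 in rat 21, 1.68 in rat 22, 3.76 in rat 23 and 1.77 in rat 24. In the AS group it was 3.13 CPM in rat 13, 1.71 in rat 14, 2.83 in rat 15, 2.44 in rat 16 and 2.95 in rat 17. C rat 23, on 56 reads (95% Poisson interval 42.3 to 72.7, counting error only), lay above all AS rats, while the other C rats lay in or below the AS range. The RS3 rats had 4.86 CPM in rat 7, 5.05 in rat 9, 5.67 in rat 10, 3.82 in rat 11 and 4.11 in rat 12, and the RS7 rats 4.67 in rat 2, 4.99 in rat 3, 5.18 in rat 4, 4.48 in rat 5 and 5.31 in rat 6. Every RS3 and RS7 rat lay above every C and AS rat, although RS3 rat 11 exceeded C rat 23 by less than the counting error of either. Group means were 2.15 ± 0.927 CPM in C, 2.61 ± 0.562 in AS, 4.70 ± 0.743 in RS3 and 4.92 ± 0.348 in RS7 (SD, n = 5 each). The spread relative to the mean (coefficient of variation) was 43.1% in C, 21.5% in AS, 15.8% in RS3 and 7.07% in RS7. The C value includes rat 23, at 3.76 CPM against 2.08 CPM in the next highest C rat. Counting error adds to each of these values, and a difference in spread was not tested.

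The log2 fold change of Fzd5 was 1.07 (SE 0.198) for C versus RS3, 1.12 (SE 0.196) for C versus RS7 and 0.91 (SE 0.188) for AS versus RS7, comparisons that chose the gene. Without C rat 23 the first was 1.41 and the second 1.46. For AS versus RS3 it was 0.86 (SE 0.190), with an edgeR p of 0.457 after Benjamini-Hochberg adjustment over 16202 genes, and the 5 RS3 rats did not overlap the 5 AS rats. The C versus AS log2 fold change was 0.21 (SE 0.216, edgeR adjusted p = 0.755), and it was 0.12 without C rat 21 and 0.55 without C rat 23. For RS3 versus RS7 it was 0.05 (SE 0.172, edgeR adjusted p = 0.957).

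Lypd6 (ENSRNOG00000038980), a glycolipid-anchored protein of the Ly6 family described as an enhancer of Wnt signalling at the receptor complex, was at similar mean levels in the C and AS groups and higher in the RS3 and RS7 groups. The C rats had 30.8 CPM in rat 19, 25.4 in rat 21, 27.5 in rat 22, 38.6 in rat 23 and 30.8 in rat 24, and the AS rats 37.6 in rat 13, 28.4 in rat 14, 34.1 in rat 15, 32.5 in rat 16 and 28.8 in rat 17. In the RS3 group the level was 31.7 CPM in rat 7, 47.3 in rat 9, 53.7 in rat 10, 40.3 in rat 11 and 46.9 in rat 12. RS3 rat 7 lay within the C and AS values, while the other RS3 rats lay above them. The RS7 rats had 49.6 CPM in rat 2, 41.6 in rat 3, 48.6 in rat 4, 45.2 in rat 5 and 59.8 in rat 6, all above the C and AS rats. Means were 30.6 ± 5.01 CPM in C, 32.3 ± 3.84 in AS, 44.0 ± 8.37 in RS3 and 49.0 ± 6.82 in RS7 (SD, n = 5 each), on 191 to 881 reads per rat.

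The Lypd6 log2 fold change was 0.52 (SE 0.131) for C versus RS3, 0.66 (SE 0.130) for C versus RS7 and 0.60 (SE 0.129) for AS versus RS7, which chose the gene. Of the tested comparisons, C versus AS gave 0.06 (SE 0.134, edgeR adjusted p = 0.906), AS versus RS3 gave 0.46 (SE 0.130, edgeR adjusted p = 0.789) and RS3 versus RS7 gave 0.14 (SE 0.125, edgeR adjusted p = 0.792). With 1 rat left out the first ran from 0.00 (without AS rat 13) to 0.17 (without C rat 23) and the last from 0.05 (without RS3 rat 7) to 0.23 (without RS3 rat 10). A higher Lypd6 level in RS3 than in AS rats was thus seen in 4 of 5 RS3 rats and did not pass the adjustment over all genes.

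**Figure D1:**
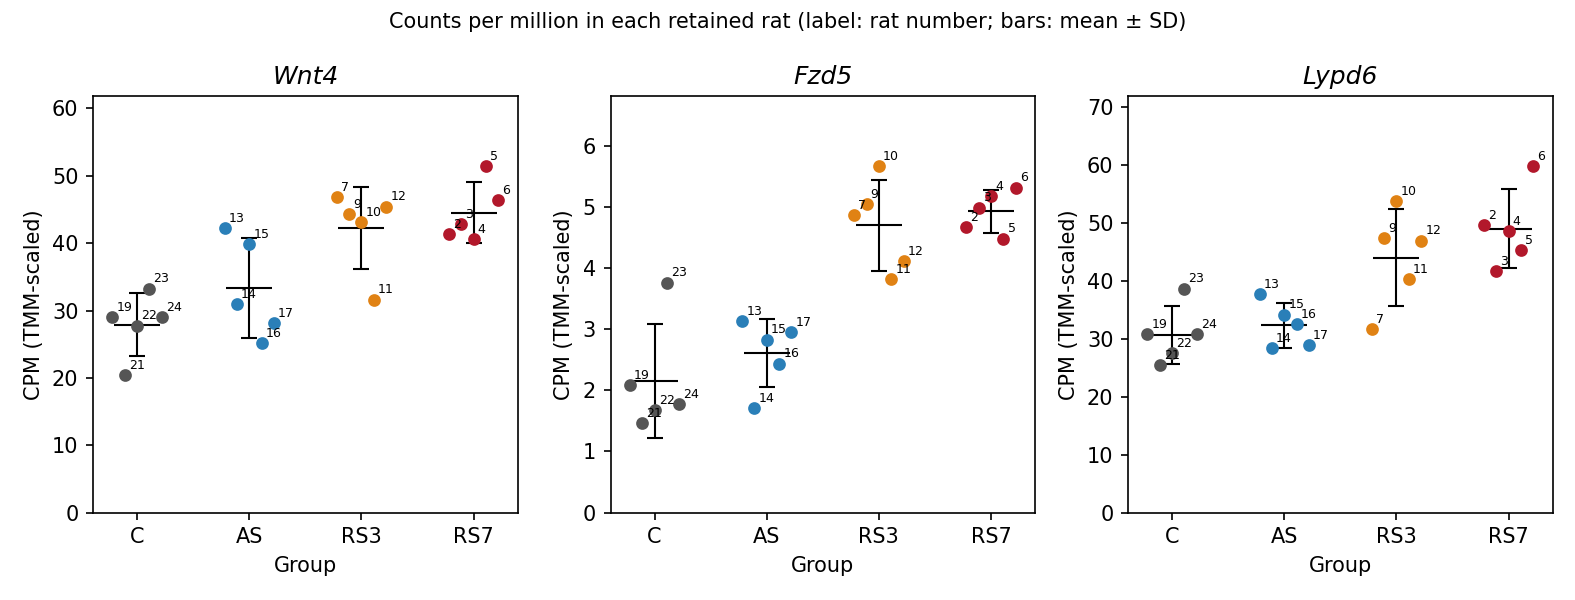
Level of Wnt4, Fzd5 and Lypd6 (y axis, TMM-scaled CPM) in each retained rat of the 4 groups (x axis); numbers beside the points are rat numbers, and black bars are the group mean and SD (n = 5). The RS7 rats lie above all C rats for each gene, C rat 23 is the highest C rat for each gene, and RS3 rats 11 (Wnt4) and 7 (Lypd6) are the lowest of their group.

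Ordered by mean level, the groups ran C, AS, RS3, RS7 for each of the 3 genes. Parts of this order turned with the rats used. Without RS3 rat 11 the RS3 versus RS7 log2 fold change was -0.010 for Wnt4 and -0.0098 for Fzd5. Without C rats 21 and 22 and RS7 rat 4, that of Lypd6 in C versus AS was -0.048. The means of the neighbours C and AS, and of RS3 and RS7, differed by less than the larger SD of the 2 groups, whereas those of AS and RS3 differed by more. In the RS3 group rat 7 had the highest Wnt4 level and the lowest Lypd6 level. In the RS7 group rat 5 had the highest Wnt4 level and the lowest Fzd5 level. In the C group rat 23 was the highest and rat 21 the lowest for all 3 genes. AS rat 13 was the highest of its group for all 3, and the lowest was rat 16 for Wnt4 and rat 14 for Fzd5 and Lypd6.

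The edgeR quasi-likelihood test over 16202 genes called 0 genes (0%) in the C versus AS group comparison, with 1625 at an unadjusted p under 0.05, and 2 other tools also called 0, namely limma-voom (weighted by sample quality) and DESeq2. It called 0 (0%) for AS versus RS3, with 747 at an unadjusted p under 0.05, where DESeq2 called 1 and limma-voom 0. For RS3 versus RS7 it called 0 (0%), with 1218 at an unadjusted p under 0.05, and DESeq2 and limma-voom called 0. All 3 genes passed the filter on low counts, and 0 of the 3 were called in these comparisons. For C versus RS3, 0 genes (0%) were called, with 2639 at an unadjusted p under 0.05, against 38 by DESeq2 and 0 by limma-voom, and edgeR called 17 without C rat 23. For C versus RS7, 24 genes (0.148%) were called, Fzd5 and Lypd6 among them and Wnt4 not, and for AS versus RS7, 270 genes (1.67%), again with Fzd5 and Lypd6 and without Wnt4. DESeq2 called 419 and 568 genes in these 2 comparisons and limma-voom 164 and 868, and both tools called Wnt4, Fzd5 and Lypd6 in each. In C versus RS3 DESeq2 called Wnt4 and Lypd6 and gave no adjusted p for Fzd5. DESeq2 was run on the whole table without the filter on low counts, so its counts of called genes are not shares of the same genes. With 1 rat left out in turn, edgeR called Fzd5 in 16, Lypd6 in 7 and Wnt4 in 5 of 20 fits of C versus RS7. In AS versus RS7 it called Fzd5 in 19, Lypd6 in 16 and Wnt4 in 1 of 20, and in C versus RS3 only Fzd5, in 1 of 20. These last 3 comparisons chose the genes, and nothing is read from the calls. The C versus RS7 count was 0 when a single rat, number 19 or 21 of C or number 3 or 6 of RS7, was left out, and 560 without RS7 rat 4. The AS versus RS7 count fell to between 46 and 97 without AS rat 14, 16 or 17 or RS7 rat 3, 5 or 6.

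Groups that did not overlap, with the later group higher, were found for all 3 genes in C versus RS7 (2.06% of all genes tested), for Fzd5 and Lypd6 in AS versus RS7 (2.39%) and for Fzd5 alone in C versus RS3 (1.22%) and in AS versus RS3 (0.383%). Nothing is read from these shares, since the genes were chosen by the same levels.

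The left-out rats, dropped by the authors for poor libraries with few reads or with much adapter sequence and a high GC content, were not used to fit these values. Snap25, a neuronal gene, was at 2201, 8381, 2237 and 4058 CPM in the left-out C, AS, RS3 and RS7 rats and between 1251 and 1689 CPM in the retained rats, so these libraries stand apart. On a scale set over all 24 rats, Wnt4 was at 17.7 CPM in the C rat, 12.2 in the AS rat, 26.8 in the RS3 rat and 28.3 in the RS7 rat. Fzd5 was at 1.97, 1.15, 2.96 and 2.76 CPM in the same rats, on 18, 3, 25 and 29 reads. Lypd6 was at 24.96, 27.9, 34.0 and 33.3 CPM. For each gene both repeatedly exposed rats lay above the C and the AS rat, with 1 rat per group, no measure of spread and the quality named above, so that no pattern is read from it. For Wnt4 and Fzd5, RS3 rat 8 and RS7 rat 1 lay below every retained rat of their own groups on the same scale.

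Within groups, the 3 genes were compared by the deviation of each retained rat's log2 CPM from its group mean, which does not use the differences between groups that chose the genes. Over 20 rats and 3 pairs of genes, Fzd5 and Lypd6 had a Pearson r of 0.598 (two-sided permutation test within groups, p = 0.00811, Benjamini-Hochberg adjusted p = 0.0243) and a Spearman rho of 0.605 (permutation p = 0.00995, adjusted p = 0.0299), with deviations of the same sign in 12 of the 20 rats. Without the 2 rats farthest from the median of Fzd5 the r was 0.461 (permutation, adjusted p = 0.164), so that the relation rests in part on those rats. It was 0.459 (permutation, adjusted p = 0.195) without C rat 23, 0.565 (permutation, adjusted p = 0.0597) without RS3 rat 10, 0.574 (permutation, adjusted p = 0.0544) without AS rat 14 and 0.546 (permutation, adjusted p = 0.0579) without C rat 21. For Wnt4 and Fzd5 the r was 0.522 (permutation p = 0.0592, adjusted p = 0.0888; rho 0.466, permutation p = 0.0669, adjusted p = 0.0669), and without the 2 farthest rats 0.371. Wnt4 and Lypd6 had an r of 0.413 (permutation p = 0.0917, adjusted p = 0.0917) and a rho of 0.499 (permutation p = 0.0371, adjusted p = 0.0557), and without the 2 farthest rats an r of 0.305. Without RS3 rat 7, which was high for Wnt4 and low for Lypd6, this r was 0.631 (permutation, adjusted p = 0.0133).

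**Figure D2:**
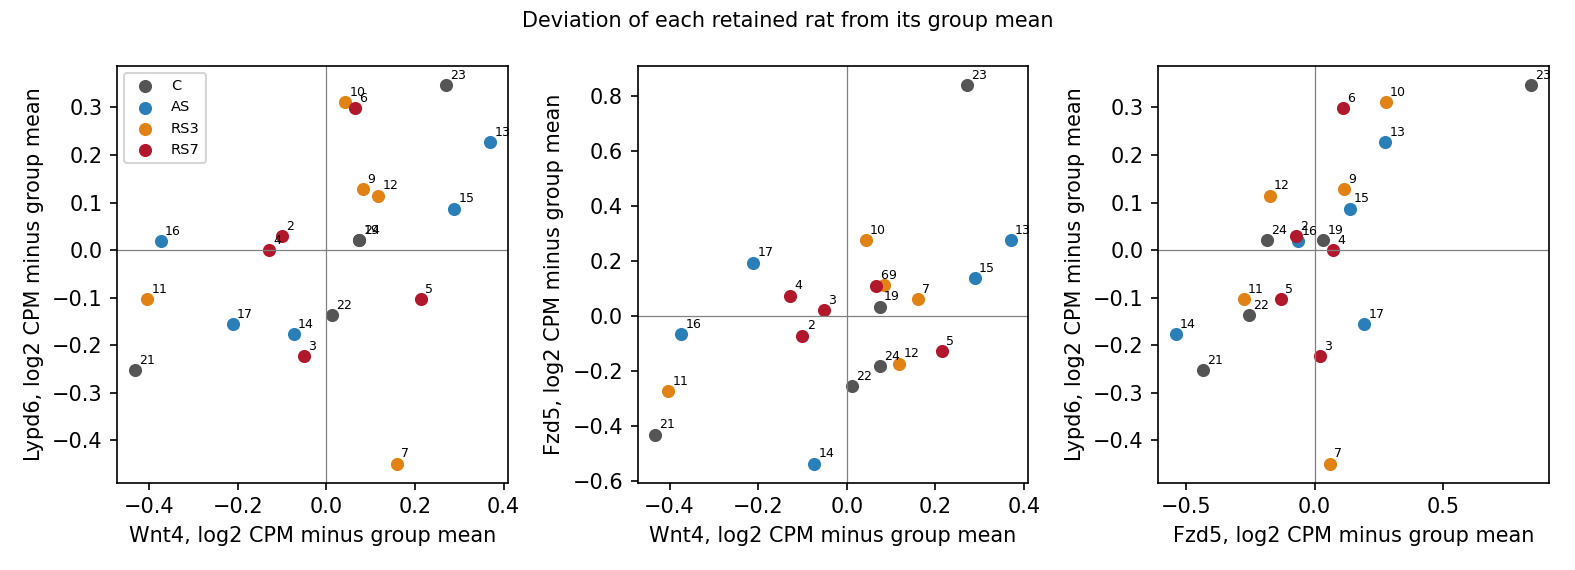
Deviation of each retained rat from its group mean (both axes, log2 CPM) for the 3 pairs of genes, with points coloured by group and labelled by rat number. C rat 23 lies at the upper right of each panel, C rat 21 at the lower left, and RS3 rat 7 below the other rats in the panels with Lypd6.

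Of 6 relations of these levels with library depth and composition within groups, none had an adjusted p of 0.05 or less. The Pearson r of the total count was 0.332 with Wnt4 (permutation p = 0.171, adjusted p = 0.205) and 0.650 with Lypd6 (permutation p = 0.0107, adjusted p = 0.0642 over 6 relations), with a rho of 0.591 (permutation p = 0.0179, adjusted p = 0.0788) and an r of 0.552 without the 2 farthest rats. With Fzd5 it was 0.515 (permutation p = 0.0281, adjusted p = 0.0843; rho 0.481, permutation p = 0.0394, adjusted p = 0.0788), or 0.625 without the 2 farthest rats. The r of the share of the 10 most abundant genes was -0.337 with Wnt4 (permutation p = 0.163, adjusted p = 0.205), -0.327 with Fzd5 (permutation p = 0.383, adjusted p = 0.383) and -0.454 with Lypd6 (permutation p = 0.0533, adjusted p = 0.107). The RS7 group had the highest median total count. The part of depth in the group differences was not tested. Without C rats 21 and 22 and RS7 rat 4, an alternative chosen after seeing the data, the C versus RS7 log2 fold change was 0.59 for Wnt4, 0.91 for Fzd5 and 0.55 for Lypd6. Under it the C versus AS log2 fold change was 0.13 for Wnt4, 0.01 for Fzd5 and -0.05 for Lypd6, and the AS versus RS3 log2 fold change of Fzd5 was 0.85 (edgeR adjusted p = 0.377, against 0.457 with all retained rats).

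Of the 107 genes of a Wnt list grouped by role, 16 could be matched to identifiers of the table (15.0%), since the symbols used here come from a list of genes that the authors had called in these rats. The matched genes are therefore no independent evidence of a direction. They are the ligands Wnt2b, Wnt3, Wnt4 and Wnt9b, the ligand carrier Wls, the receptors Fzd3, Fzd5 and Fzd10, the membrane proteins Lypd6 and Lypd6b, the cytoplasmic Dvl2, Apc and Ctnnb1, the polarity gene Prickle2 and the nuclear Lef1 and Tcf7l2, the last with 2 identifiers. Fzd8, the closest relative of Fzd5, was not analysed here for want of an identifier. Of the 14 identifiers other than those of Wnt4, Fzd5 and Lypd6, edgeR called 2 in AS versus RS7 (1.67% of all genes tested), both higher in the RS7 group. Fzd3, a receptor linked to cell polarity and axon guidance, had a log2 fold change of 0.84 (SE 0.149, edgeR adjusted p = 0.00870) and Lypd6b, the paralog of Lypd6, one of 0.90 (SE 0.214, edgeR adjusted p = 0.0364).

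In C versus RS7 edgeR called 0 of the 14, with 13 at an unadjusted p under 0.05. DESeq2 called 10 of them (419 genes in all, without the filter on low counts) and limma-voom 5 (164 of 16202 genes). Of all 16202 genes tested by edgeR, 2896 were at an unadjusted p under 0.05 there. In AS versus RS7 it was 13 of the 14 and 2628 of all genes. The 14 were matched only because they had been called in these rats, so a larger share among them is no finding. Of the 14, edgeR called 6 without RS7 rat 4, 3 without C rat 23, and 2 and 1 when RS3 rats 11 and 7 were left out singly. In AS versus RS7, where edgeR called 2, DESeq2 called 8 (568 genes in all, without the filter) and limma-voom 11 (868 of all genes). There edgeR called 1 without AS rat 14, 16 or 17 or RS7 rat 3, 5 or 6, 4 without C rat 21, AS rat 13 or RS7 rat 2, and 5 without AS rat 15 or RS3 rat 11. The number called by edgeR was 0 in the other 4 comparisons, with 2 of the 14 at an unadjusted p under 0.05 in C versus AS (1625 of all genes), 7 in C versus RS3 (2639), 3 in AS versus RS3 (747) and 4 in RS3 versus RS7 (1218), and DESeq2 and limma-voom called 0 there. The median log2 fold change of the 14 was 0.04 in C versus AS, 0.22 in C versus RS3, 0.42 in C versus RS7, 0.12 in AS versus RS3, 0.37 in AS versus RS7 and 0.20 in RS3 versus RS7, where that of all genes tested lay between -0.01 and 0.00. In the tested comparisons Wnt4, Fzd5 and Lypd6 each lay above this median in C versus AS and AS versus RS3 and below it in RS3 versus RS7, which was not tested as a difference. The 3 genes were chosen partly by C versus RS3, and the 14 were matched through calls in these rats. These positions depend on how each set was picked, so nothing is read from them. Dvl2, which relays Frizzled signals in the cytoplasm and is named after its value was seen, was the only one of the 14 with a negative value in C versus RS7, with a log2 fold change of -0.35 (SE 0.0913, edgeR adjusted p = 0.0736).

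**Figure D3:**
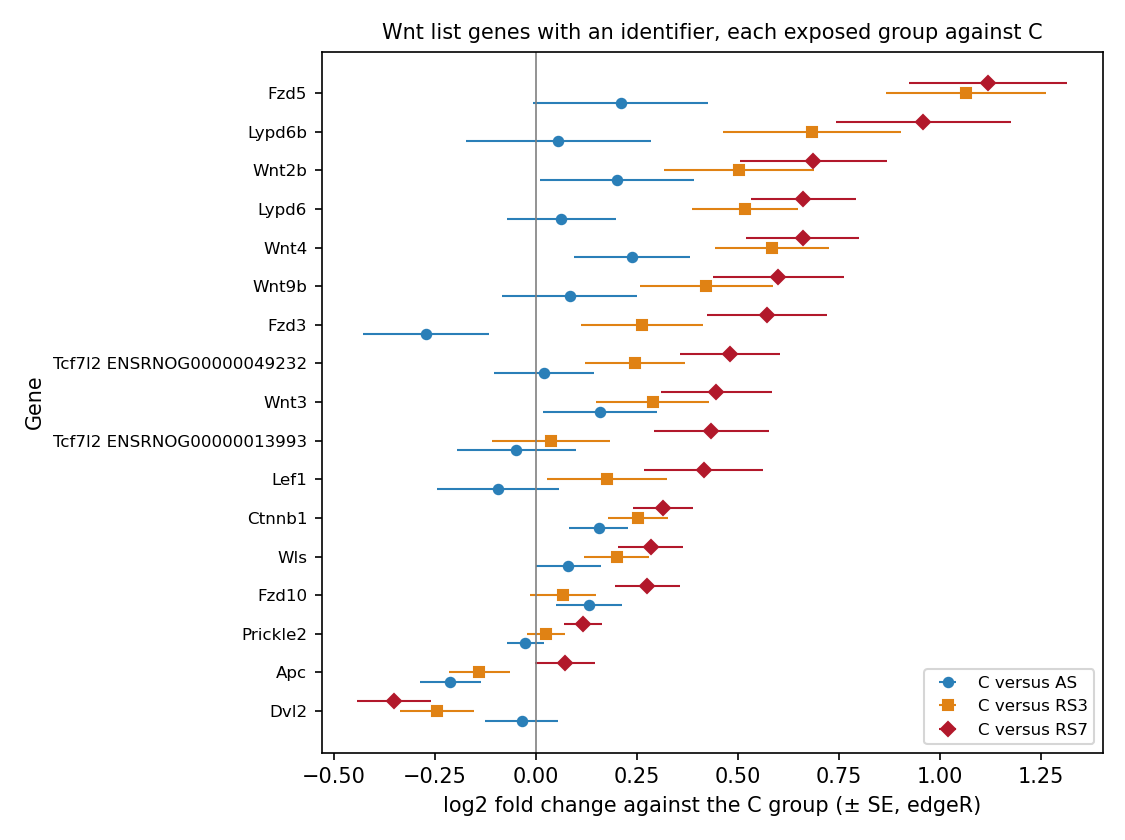
Log2 fold change of the AS, RS3 and RS7 groups against the same C group (x axis, edgeR, bars are the SE) for the 17 identifiers of the Wnt list (y axis), ordered by the C versus RS7 value. Fzd5 lies at the top with 1.12 and Dvl2 at the bottom with -0.35 in C versus RS7; the 3 comparisons share the C rats.

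Lypd6b showed the same order of groups as Lypd6, with means of 13.8 ± 5.02 CPM in C, 14.7 ± 3.07 in AS, 22.5 ± 5.65 in RS3 and 27.7 ± 4.36 in RS7 (SD, n = 5 each). Lypd6 and Lypd6b are neighbouring coding genes on chromosome 3 in the RefSeq annotation of the GRCr8 assembly, which is not the assembly the reads were mapped to. Because the handling of reads with several positions is not given in the sources used here, reads of the 2 paralogs may have been assigned to either, and their values are uncertain to that extent. In GRCr8, Fzd5 overlaps 1 predicted coding gene and Lypd6 overlaps 1 predicted coding gene and 1 transfer RNA gene, whereas Wnt4 overlaps none. Strand was not stated for the counting, so reads of overlapping genes could not be told apart.

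The deviations within groups were also compared between the 3 genes and the 14 other Wnt identifiers, an addition made after seeing the data. Of 42 relations, 10 had an adjusted p of 0.05 or less by Pearson's r, 8 of them with Wnt4, 1 with Fzd5 and 1 with Lypd6, and r was above 0 in 38. By Spearman's rho it was 12, with 7 for Wnt4, 1 for Fzd5 and 4 for Lypd6, and 9 passed by both. An r as far from 0 as the weakest called one, 0.630 with Wnt4, 0.690 with Fzd5 and 0.884 with Lypd6, was found for 8.18%, 0.111% and 0.00617% of 16201 other genes, and r was above 0 for 48.6%, 51.3% and 50.1%. The 14 were not drawn from all genes, since they were matched through calls in these rats, so no excess is read from this. With 1 rat left out in turn, the call was lost in 14 of 20 fits for Wnt2b and Wnt4, in 13 for Lypd6b and Fzd5, in 9 for Tcf7l2 (ENSRNOG00000013993) and Wnt4, and in 2 for Prickle2 and Wnt4. For Lef1 and Wnt4 the r was 0.043 in all 24 rats (permutation, adjusted p = 0.897). The strongest with Wnt4 was that of Tcf7l2 (ENSRNOG00000049232), a TCF/LEF factor that is also listed here for dorsal thalamus, with an r of 0.929 (permutation p = 0.00012, adjusted p = 0.00126) and a rho of 0.905 (permutation p = 0.00018, adjusted p = 0.00160), and an r of 0.888 without the 2 rats farthest from the median. In all 24 rats this r was 0.200 (permutation, adjusted p = 0.583), so that it holds in the retained libraries only. Wnt3, another ligand, had an r of 0.885 with Wnt4 (permutation p = 6e-05, adjusted p = 0.00084; rho 0.832, permutation p = 0.00023, adjusted p = 0.00161), and 0.800 without the 2 farthest rats. Lypd6 and Lypd6b had an r of 0.884 (permutation p = 2e-05, adjusted p = 0.00084) and a rho of 0.949 (permutation p = 1e-05, the smallest that the permutations can give, adjusted p = 0.00042), with deviations of the same sign in 19 of 20 rats and an r of 0.858 without the 2 farthest rats. These 3 relations were singled out after their values were seen.

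Over the 20 retained rats, group differences included, the genes with a symbol whose log2 CPM was most like that of Wnt4 included Fbxl16 (Pearson r 0.947), Slc17a6 (0.942), which encodes the vesicular glutamate transporter VGLUT2, the gene with the identifier ENSRNOG00000027645 (0.941) and Cyp46a1 (0.926). For Fzd5 they were Foxp2 (0.883), Prkcq (0.881), Ctxn3 (0.878), Cndp2 (0.878) and Orai1 (0.876). For Lypd6 they were Cbln4 (0.957), Lypd6b (0.954), Cndp2 (0.922), Prkcq (0.907) and Lynx1 (0.902), the last also a gene of the Ly6 family. Cndp2 and Prkcq were thus among the 5 most alike for both Fzd5 and Lypd6. Among 16201 other genes, Lypd6 had rank 8 (r 0.869) and Wnt4 rank 10 (r 0.837) in likeness to Fzd5. In likeness to Wnt4, Fzd5 had rank 189 and Lypd6 rank 427 (r 0.770), and in likeness to Lypd6, Fzd5 had rank 10 and Wnt4 rank 92. Since the symbols come from genes called in these rats, likeness here includes the group differences that chose the genes, and no p is given.

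Levels of genes known to mark neighbouring brain regions and cell types are given beside these values as a description, since the markers with an identifier were matched only because they had been called in these rats. Of these markers, edgeR called Rora, Snap25 and Gad1 in AS versus RS7, where 1.67% of all genes tested were called. Their log2 fold changes were 1.14 for Rora and 0.24 for Snap25, higher in RS7, and -0.71 for Gad1, lower in RS7. In the other comparisons none of the markers was called, with Gad1 at -0.63 in C versus RS7 (edgeR adjusted p = 0.0540). A difference between comparisons was not tested. Of 11 genes listed for dorsal thalamus, 6 had an identifier (Tcf7l2, Lef1, Rora, Ntng1, Synpo2 and Plekhg1, of which the first 2 are also in the Wnt list), and their summed level was 979 ± 128 CPM in C, 943 ± 168 in AS, 1093 ± 197 in RS3 and 1303 ± 145 in RS7 (SD, n = 5, scale of all 24 rats). By mean CPM, with no allowance for gene length, 1 of the 2 Tcf7l2 identifiers was the highest of them. The sum was 890, 800, 1100, 1035 and 1069 CPM in C rats 19, 21, 22, 23 and 24 and 1094, 905, 1139, 763 and 813 CPM in AS rats 13 to 17. It was 1192, 1317, 1080, 786 and 1090 CPM in RS3 rats 7, 9, 10, 11 and 12 and 1176, 1302, 1267, 1548 and 1223 CPM in RS7 rats 2 to 6. C rat 21, AS rat 16 and RS3 rat 11, each the lowest of its group for Wnt4, and RS7 rat 5, the highest, were so for this sum as well. In the C group the highest sum was that of rat 22, second lowest for Wnt4, in the RS3 group that of rat 9, not of rat 7, in the AS group that of rat 15, not of rat 13, and in the RS7 group the lowest sum was that of rat 2, not of rat 4. The left-out RS7 rat 1, below all retained RS7 rats for Wnt4, had 1654 CPM. The left-out C rat 20 had 961 CPM, AS rat 18 had 961 and RS3 rat 8 had 1237. Gad2, which encodes a GABA-synthesizing enzyme and is listed for prethalamus, lay between 304 and 541 CPM in the C rats, 359 and 504 in the AS rats, 249 and 359 in the RS3 rats and 256 and 344 in the RS7 rats on the same scale. C rat 23, the highest C rat for Wnt4, Fzd5 and Lypd6, had the lowest Gad2 level of the C group, 304 CPM, against 466 CPM in the next lowest, rat 21, which was the lowest for those 3 genes.

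For hypothalamus, 5 of 12 genes had an identifier (Avp, Oxt, Trh, Sim1 and Gal, with the highest mean CPM over all rats for Trh, which was not the highest in each rat), and their sum was 138 ± 101 CPM in C, 162 ± 99.1 in AS, 61.6 ± 52.0 in RS3 and 27.9 ± 13.5 in RS7. It was 282, 79.1, 100, 29.3 and 198 CPM in C rats 19, 21, 22, 23 and 24 and 127, 320, 152, 47.6 and 165 CPM in AS rats 13 to 17. In RS3 rats 7, 9, 10, 11 and 12 it was 147, 16.0, 59.4, 23.6 and 62.0 CPM, and in RS7 rats 2 to 6 it was 38.3, 17.6, 36.7, 37.5 and 9.40 CPM. The 2 listed astrocyte genes with an identifier, Aqp4 and Slc1a3, summed to 1728 ± 149 CPM in C, 1589 ± 67.7 in AS, 1519 ± 60.3 in RS3 and 1557 ± 87.4 in RS7. The neuronal Snap25 was at 1467 ± 94.7 CPM in C, 1347 ± 82.3 in AS, 1520 ± 99.1 in RS3 and 1602 ± 88.4 in RS7. No listed gene of habenula, choroid plexus, ependyma, endothelium, meninges, oligodendrocytes or microglia had an identifier, so that their levels were not analysed here. The part of the regional makeup of the tissue block in the levels of Wnt4, Fzd5 and Lypd6 was not tested, because no list had identifiers for 80% of its genes.

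The 250 bases before the annotated starts were searched for short promoter motifs and for the core sequence bound by TCF/LEF factors, with sequences from RefSeq (GRCr8), and are shown as a description of the genes. All 3 genes had an entry, but 205 of the 250 bases for Wnt4 lie within the annotated gene, so its sequence is not printed. Capitals mark GC boxes (GGGCGG or, on the other strand, CCGCCC), and the windows are chr9:73614040-73614289 on the minus strand for Fzd5 and chr3:54896368-54896617 on the plus strand for Lypd6, each written 5′ to 3′ along the gene.
Fzd5: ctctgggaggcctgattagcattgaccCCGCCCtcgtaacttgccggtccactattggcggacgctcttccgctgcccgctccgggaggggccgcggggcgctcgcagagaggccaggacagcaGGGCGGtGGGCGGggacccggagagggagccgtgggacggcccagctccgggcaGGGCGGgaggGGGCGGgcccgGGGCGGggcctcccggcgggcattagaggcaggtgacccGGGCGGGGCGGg
Lypd6: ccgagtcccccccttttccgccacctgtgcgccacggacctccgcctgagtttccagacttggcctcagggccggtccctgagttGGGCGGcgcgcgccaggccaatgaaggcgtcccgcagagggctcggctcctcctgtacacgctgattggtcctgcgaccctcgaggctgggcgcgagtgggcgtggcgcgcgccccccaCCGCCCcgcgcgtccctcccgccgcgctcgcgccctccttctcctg
The Fzd5 window held 8 GC boxes, 2 of which overlap at its end, and the Lypd6 window 2, and a GC box was present in 30.5% of 33469 promoter windows of the same length. The CCAAT box (CCAAT or ATTGG) occurred 1 time for Fzd5 and 2 times for Lypd6, against 34.0% of windows with at least 1. The TCF/LEF core sequences CTTTGA and CTTTGT, searched on both strands, were found in neither window, and were present in 13.9% and 16.3% of all windows. The TATA box TATAAA (12.9% of windows), the E-box CACGTG (5.59%) and the cAMP response half-site TGACG (18.2%) were not found in either window. GC content was 76.4% for Fzd5 and 73.6% for Lypd6, against a median of 51.2% over all windows. A match describes the letters of the window and not a site in use.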

How the data were processed

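The authors trimmed paired reads (Trimmomatic 0.36), mapped them to the rn6 rat genome (HISAT2 2.0.5) and deposited 1 table of unnormalized counts per Ensembl gene from featureCounts for 24 rats, per the submitters' processing notes. Strandedness, and how multiply mapped reads were counted, is not given in the sources used here. The table holds no symbols. The reference table matched 0 identifiers, and the supplementary list of called genes paired 778 with a symbol. The 4 left-out rats were found by recomputing the mean normalized counts of that list's 808 genes for 1296 sets with 1 rat left out per group. The set used matched 808 (relative tolerance 1e-07), the next best 0.

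The genes and gene lists were chosen with earlier results of these data known. Counts were fitted in R 4.3.3 with edgeR 4.0.16 (filterByExpr, minimum count 10; TMM; robust quasi-likelihood test, 4 groups in 1 fit, no covariates), with Benjamini-Hochberg adjustment over 16202 genes in each comparison and a threshold of 0.05. DESeq2 1.42.0, limma-voom (limma 3.58.1), DESeq2 size factors, no filter, all 24 rats, only the groups compared and leaving out each rat were alternatives. The DESeq2 fit took the whole table, without filterByExpr. The procedure was also run on simulated counts, whose outcome is not given here, so nothing is drawn from it. The SE of each edgeR log2 fold change was calculated back from the test, as its absolute value divided by the square root of the quasi-likelihood F statistic. Correlations used log2 CPM with a prior count of 2 and 100000 permutations within groups. Genes named are Wnt4, Fzd5 and Lypd6, called genes of the Wnt list, ligands and Frizzled receptors with an identifier, and the 5 genes most alike to each, of which 1 is not reported here, nor is the sum of the prethalamus list. Other genes of the Wnt list and marker genes are also named, and those of them given with a single value (such as Dvl2 and Tcf7l2) were picked after their values were seen. Relations with marker lists were intended and not run, as no list had identifiers for 80% of its genes. Columns of the authors' own comparisons were not used.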

Additional observations from a re-analysis of the deposited data

Results flagged for a closer look

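In groups of 5 retained rats, a value was taken as far from the others where its gap to the nearest rat exceeded Dixon's 95% critical value as a share of the group's range. Of 76 groups examined, 5 met this, and chance alone gives about 1 in 20. Wnt4 in RS3 rat 11 was at 31.6 CPM, with the nearest RS3 rat at 43.1 CPM. In the same rat Apc was at 272 CPM, against 319 CPM in the nearest, and Prickle2 at 139 CPM, against 152 CPM. Fzd5 in C rat 23 was at 3.76 CPM, with the nearest C rat at 2.08 CPM. In RS7 rat 4 the 10 most abundant genes took 18.8% of the counts, against 14.0% in the nearest RS7 rat. What sets these rats apart was not tested.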

How the results depend on the processing

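The 18 log2 fold changes of Wnt4, Fzd5 and Lypd6 were recomputed under 27 alternatives, and 483 of 486 values kept their direction. The exceptions were near 0: RS3 versus RS7 without RS3 rat 11 gave -0.010 for Wnt4 and -0.0098 for Fzd5 (highest 0.11 and 0.14 over the rats left out in turn), and C versus AS gave -0.048 for Lypd6 without C rats 21 and 22 and RS7 rat 4, chosen after seeing the data, and 0.014 for Fzd5 there. No fold change of the 3 genes in the tested comparisons passed the threshold under any of the 27. Leaving out 1 rat moved Fzd5 between 0.98 and 1.41 in C versus RS3 and between 1.03 and 1.46 in C versus RS7, both highest without C rat 23.

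Counts of called genes moved more. DESeq2 gave 38 for C versus RS3, 419 for C versus RS7, 1 for AS versus RS3 and 568 for AS versus RS7, and limma-voom 164 for C versus RS7 and 868 for AS versus RS7. For C versus RS7 the count was 64 with no filter, 46 with all 24 rats and 0 without C rats 21 and 22 and RS7 rat 4. For AS versus RS7 it was 129 with all 24 rats and 433 with only the groups compared. With 1 rat left out the counts ran from 0 to 17 (C versus RS3), 0 to 560 (C versus RS7) and 46 to 403 (AS versus RS7). Of the 14 other Wnt identifiers, DESeq2 called 10 in C versus RS7 and 8 in AS versus RS7, and limma-voom 5 and 11. In C versus RS7, 1 was called with no filter, with all 24 rats and with only the groups compared, and 0 to 6 with 1 rat left out. In AS versus RS7, 5 were called without C rats 21 and 22 and RS7 rat 4, and 1 to 5 with 1 rat left out. The cause was not tested.

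The r of Fzd5 and Lypd6 lost its call without the 2 farthest rats (0.461) and without C rats 21 and 22 and RS7 rat 4 (0.501), and ran from 0.459 to 0.758 with 1 rat left out. In all 24 rats r passed the threshold for Wnt4 and Lypd6 (0.499) and Wnt4 and Fzd5 (0.732). These 24-rat values include the left-out rats, whose poor libraries stand apart, so no stronger relation is read from them. With 1 retained rat left out, the r of Wnt4 and Lypd6 ran from 0.313 to 0.631. Depth limits Fzd5 most, with as few as 11 reads in a retained rat.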
